A study of Arabidopsis thaliana with 12 samples.

Results

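PLIM2a, PLIM2b, ACT12 and MGH3 are 4 Arabidopsis thaliana genes of the pollen grain, 3 of them parts of its actin cytoskeleton and the other a histone of its sperm cells. They were taken by gene symbol: every probe set annotated to 1 of these genes was used, which gave 1 probe set for each (PLIM2a is locus AT2G45800, PLIM2b AT1G01780, ACT12 AT3G46520 and MGH3 AT1G19890), 4 of the 13286 loci named on the array. The levels were measured on 12 Affymetrix ATH1 arrays, with 3 arrays in each of 4 groups and a pool of 20 plants per array, per the labels' protocols. Wild-type plants of the Ler-0 (Landsberg erecta) background gave mature rosette leaves at growth stage 3.90 and flowers at growth stage 6.90, and plants with the lug-3 mutation in the Ler-0 background gave the same tissues at the same stages. All plants had 4 days of cold at the seed stage and then grew on soil at 20 °C in constant light.

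Pollen is a small plant in itself. A large vegetative cell grows the pollen tube, and the sperm cells, formed by division of the generative cell, travel inside it to the ovule. Tube growth rests on actin: cables of bundled filaments carry vesicles along the shank to the tip. LIM-domain proteins such as PLIM2a and PLIM2b bind actin filaments and bundle them, ACT12 belongs to the reproductive class of actins, and MGH3 (male-gamete-specific histone H3 in the gene table) packs chromatin in the male germline. LEUNIG (LUG), the gene affected in lug-3, encodes a transcriptional corepressor that acts in flowers and leaves. The labels describe lug-3 flowers as having fewer stamens and lowered male fertility, so the flower samples of the mutant can differ in organ makeup. Fewer cells of a type and less RNA per cell cannot be told apart in such bulk samples.

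The values are called signal below: a linear intensity that the authors had scaled to a trimmed mean of 100.0 on every array. The median signal was between 38.3 and 52.5 on the 12 arrays, and arrays of 1 group had rank correlations (Spearman) of 0.954 to 0.986 over the probe sets. The 3' to 5' ratio of the GAPDH control probe sets, a measure of RNA quality, was 1.71 to 3.44 in wild-type leaves, 1.47 to 1.68 in lug-3 leaves, 1.63 to 2.07 in wild-type flowers and 1.65 to 3.10 in lug-3 flowers, the highest of these being lug-3 flowers 3. The extraction text of all samples speaks of rosette leaves, while the tissue label of 6 samples is flowers. Markers bore on this: ATA27, an anther beta-glucosidase gene, had a signal of 0.966 to 3.80 on the 6 arrays labelled leaves and 293.8 to 1347 on the 6 labelled flowers. LUG has no probe set named here, so its transcript was not analysed here. Nothing in the labels says that the pools of a group were grown separately. The p-value of a gene weighs a difference against the spread between arrays within groups, pooled over the 4 groups. The program used, limma, draws this spread towards that of all tested probe sets. The spread between arrays may be technical.

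In wild-type flowers all 4 transcripts stood above their leaf level, and in lug-3 flowers they lay between 23.4% and 45.4% of the wild-type flower mean. PLIM2a was the gene with the widest span. Its signal was 353, 313 and 261 on the wild-type flower arrays and 41.3, 83.0 and 106 on the lug-3 flower arrays. The wild-type leaf arrays gave 3.22, 3.16 and 11.5 and the lug-3 leaf arrays 3.95, 4.70 and 2.78. Every leaf value lay below 16.4, the 30th percentile of all signals, and the 3 lug-3 flower values lay below all wild-type flower values and above all leaf values.

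PLIM2b, the other pollen LIM gene, kept a clear signal in leaves. It was 174, 151 and 132 on the wild-type flower arrays and 54.8, 73.8 and 78.7 on the lug-3 flower arrays. The wild-type leaf arrays gave 57.6, 46.3 and 65.1 and those of lug-3 39.0, 30.6 and 36.3. All 12 values were above 16.4, and the lug-3 flower arrays overlapped the wild-type leaf arrays.

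ACT12, the reproductive actin, was low throughout. The wild-type flower arrays gave 45.4, 46.3 and 31.9 and the lug-3 flower arrays 11.7, 9.40 and 20.0. Leaves gave 6.67, 5.40 and 2.24 in wild type and 3.44, 1.96 and 0.627 in lug-3, all below 16.4, as were 2 of the 3 lug-3 flower arrays. Actin genes are similar in sequence, and the probe sequences were not used here. Signal from a close actin relative therefore cannot be told apart from that of ACT12.

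MGH3, the sperm histone, gave 69.3, 89.4 and 58.5 in wild-type flowers and 22.7, 18.2 and 9.94 in lug-3 flowers. In leaves it gave 9.95, 10.6 and 1.79 in wild type and 3.08, 1.99 and 8.13 in lug-3. On lug-3 flowers 3 the MGH3 signal lay within the range of the leaf arrays, while the other lug-3 flower arrays lay above every leaf array.

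**Figure D1:**
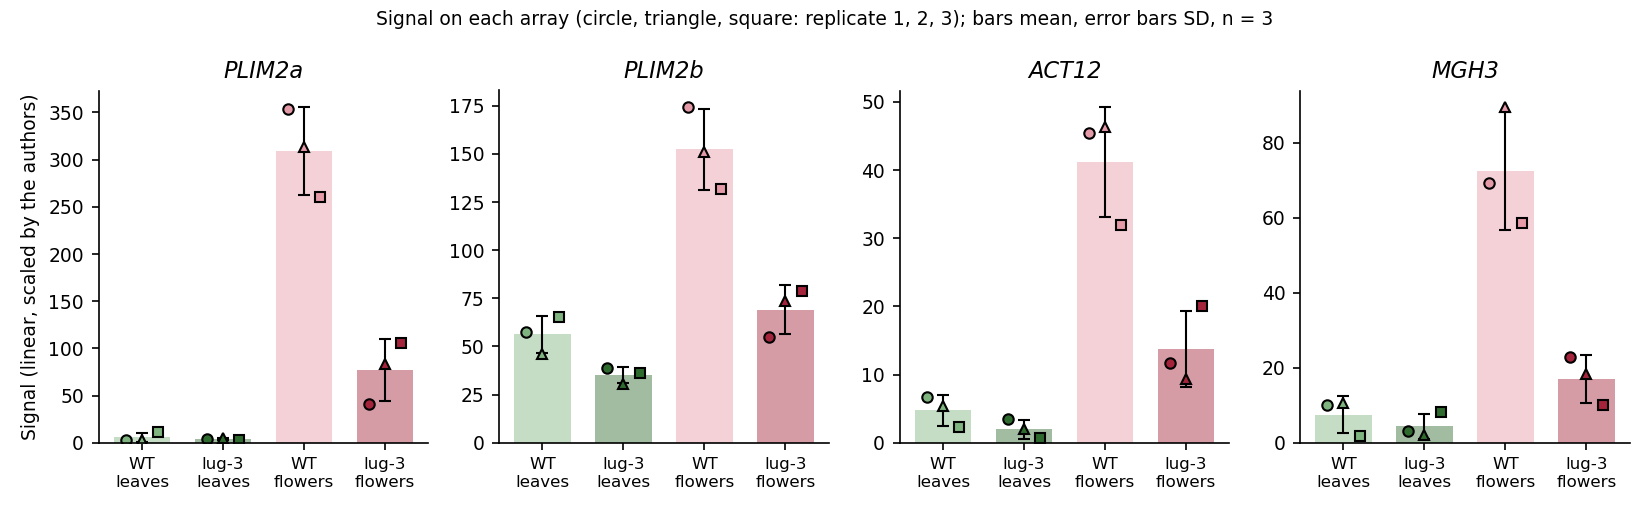
Signal of PLIM2a, PLIM2b, ACT12 and MGH3 (linear y axis from 0, a separate scale per gene) on the 12 arrays. Bars are means, error bars SD (n = 3), and circle, triangle and square mark replicates 1, 2 and 3. In flowers every lug-3 point lies below every wild-type point for all 4 genes, and PLIM2b alone has leaf values above 16.4.

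The comparison of lug-3 with wild-type flowers asked which transcripts change in flowers when LUG is impaired. PLIM2a went from 309 ± 46.4 to 76.7 ± 32.8 (mean ± SD, n = 3 each), a change of -1.98 on the log2(signal + 8) scale (SE 0.289, adjusted p = 0.00103). MGH3 had 72.4 ± 15.7 in wild type against 17.0 ± 6.49 in the mutant (-1.71 on the same scale, SE 0.284, adjusted p = 0.00233). The offset of 8 makes these log2 changes smaller than the ratio of the plain signals, more so at low signal: the lug-3 mean was 24.8% of the wild-type mean for PLIM2a and 23.4% for MGH3.

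The ACT12 signal was 41.2 ± 8.04 in wild-type and 13.7 ± 5.58 in mutant flowers (-1.20, SE 0.206, adjusted p = 0.00282), which is 33.2% of the wild-type mean. For PLIM2b the signals were 152 ± 21.2 and 69.1 ± 12.7 (-1.06, SE 0.164, adjusted p = 0.00148), 45.4% of the wild-type mean. All adjusted p-values of genes come from limma, fitted over the 17877 probe sets that passed a filter on low signal and adjusted by Benjamini-Hochberg. All 4 genes thus fell in lug-3 flowers with groups that did not overlap. Over all tested probe sets 6.75% were called lower in this comparison and 16.3% had non-overlapping groups with lug-3 lower. The median log2 change was -1.45 over the 4 genes and 0.05 over all tested probe sets.

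The 4 genes were known to fall when they were chosen, and PLIM2a, ACT12 and MGH3 passed the filter only through flower arrays, so the count of 4 describes them and supports nothing further. ACT12 exceeded 16.4 on 4 arrays, 3 of them wild-type flowers, and MGH3 on 5. With all 22746 probe sets in the fit and no filter, the adjusted p was 0.00457 for ACT12, 0.00410 for MGH3, 0.00196 for PLIM2a and 0.00238 for PLIM2b. Leaving out any 1 of the 6 flower arrays gave adjusted p-values of at most 0.0180 for the 4 genes. Without lug-3 flowers 1, the array with the lowest PLIM2a signal, PLIM2a still had a log2 change of -1.63.

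**Figure D2:**
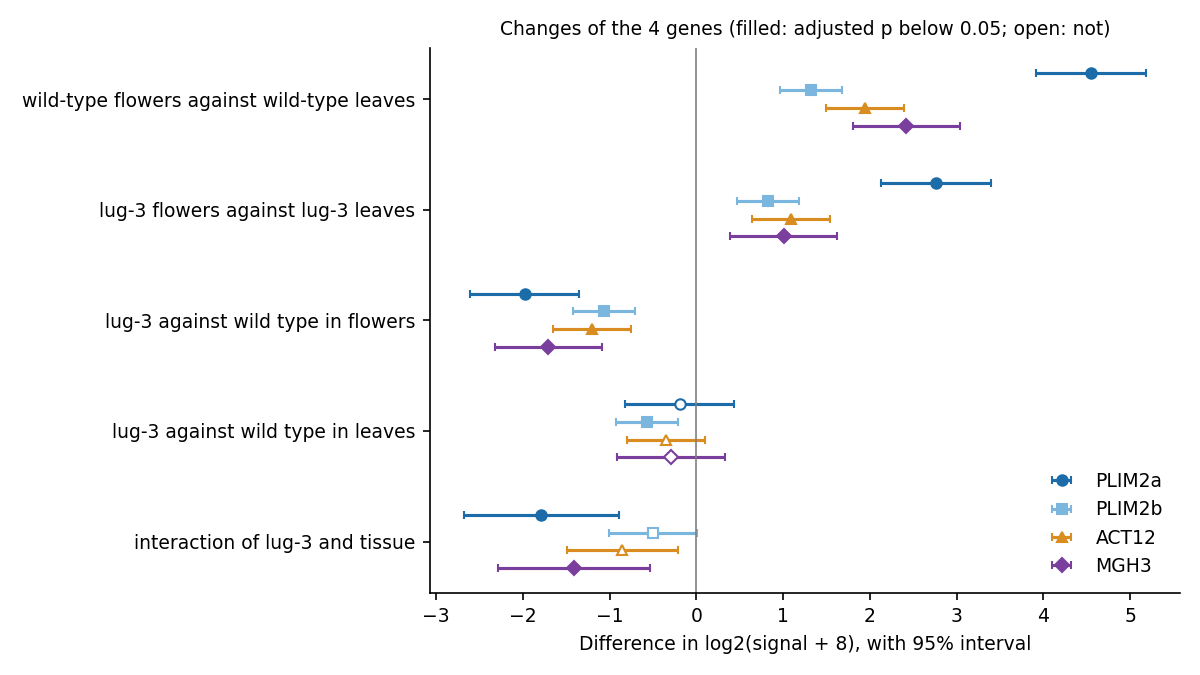
Differences in log2(signal + 8) for PLIM2a, PLIM2b, ACT12 and MGH3 in the 5 comparisons, with 95% intervals from limma (x axis, log2 units). Filled symbols have an adjusted p below 0.05. All 4 genes are above 0 in both tissue comparisons and below 0 for lug-3 in flowers, and in leaves PLIM2b alone is filled, at -0.56.

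In rosette leaves, where pollen is absent, the same comparison gave values for PLIM2a, ACT12 and MGH3 that did not pass the test. PLIM2b fell from 56.3 ± 9.46 to 35.3 ± 4.29 (-0.56 in log2, SE 0.164, adjusted p = 0.0290), to 62.7% of the wild-type mean, with groups that did not overlap. In this comparison 11.0% of all tested probe sets were called lower and 18.6% had non-overlapping groups with lug-3 lower. The PLIM2b call was lost when array 1 (adjusted p = 0.0594) or array 3 (0.0987) of the wild-type leaves was left out, and when array 2 (0.106) or array 3 (0.0671) of the mutant leaves was. It was also lost with the GAPDH ratio as a covariate (log2 change -0.48, adjusted p = 0.158). The GAPDH ratio was higher on all 3 wild-type than on all 3 lug-3 leaf arrays, and its part in the PLIM2b value was not tested beyond that covariate. The leaf change of PLIM2a was -0.19 (95% interval -0.82 to 0.44), that of ACT12 -0.35 (-0.80 to 0.10) and that of MGH3 -0.29 (-0.91 to 0.33). The signals of these 3 genes were below 16.4 on all leaf arrays, so a leaf difference was hardly measurable for them.

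Wild-type flowers against wild-type leaves shows how far the transcripts mark the flower. Leaves and flowers came from growth stages 3.90 and 6.90, so tissue and stage cannot be told apart. PLIM2a was 4.55 higher in flowers on the log2(signal + 8) scale (SE 0.289, adjusted p = 7.77e-08), MGH3 2.42 (SE 0.284, adjusted p = 1.35e-05), ACT12 1.95 (SE 0.206, adjusted p = 5.68e-06) and PLIM2b 1.32 (SE 0.164, adjusted p = 2.25e-05). For none of the 4 did the groups overlap. Of all tested probe sets 33.0% were called higher in wild-type flowers and 35.7% had non-overlapping groups with flowers higher. The calls were 5897 higher against 4685 lower. Centring each array on its median moved the median of all probe sets by -0.30 in this comparison and turned that split into 4121 and 7228, but left all 4 genes higher and called.

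Within lug-3, flowers still stood above leaves for all 4 genes, although PLIM2b in lug-3 flowers overlapped wild-type leaves and MGH3 on lug-3 flowers 3 lay within the range of the wild-type leaf arrays. PLIM2a was 2.76 higher in lug-3 flowers than in lug-3 leaves (SE 0.289, adjusted p = 8.71e-06), a signal of 76.7 ± 32.8 against 3.81 ± 0.968. ACT12 was 1.10 higher (SE 0.206, adjusted p = 0.000853), 13.7 ± 5.58 against 2.01 ± 1.41. MGH3 was 1.01 higher (SE 0.284, adjusted p = 0.0109), 17.0 ± 6.49 against 4.40 ± 3.28, and PLIM2b 0.82 higher (SE 0.164, adjusted p = 0.00129), 69.1 ± 12.7 against 35.3 ± 4.29. Again no groups overlapped. Here 31.7% of all tested probe sets were called higher and 37.5% had non-overlapping groups with flowers higher. The split of 5672 higher against 3467 lower calls became 4505 against 4458 with quantile normalization and 3362 against 5654 with median centring, which moved the median of all probe sets by -0.15 and -0.28. The MGH3 call was lost after median centring (0.72, adjusted p = 0.0636), and PLIM2a, PLIM2b and ACT12 kept theirs under both scalings. In order of level, all 4 genes were highest in wild-type flowers and next in lug-3 flowers. Wild-type and lug-3 leaves followed and differed past the test for PLIM2b alone.

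The lug-3 change was compared between flowers and leaves by the interaction term, the change in flowers minus that in leaves. It was -1.79 for PLIM2a (SE 0.409, adjusted p = 0.00970) and -1.41 for MGH3 (SE 0.401, adjusted p = 0.0255), both past the test. PLIM2a, ACT12 and MGH3 were below 16.4 on all 6 leaf arrays, so their interaction terms largely restate the fall in flowers. It was -0.85 for ACT12 (95% interval -1.49 to -0.22, adjusted p = 0.0544) and -0.50 for PLIM2b (SE 0.233, adjusted p = 0.146), neither past it. Of all tested probe sets 11.5% were called with a more negative change in flowers. The MGH3 call was lost without lug-3 leaves 3, wild-type flowers 2 or lug-3 flowers 3 (adjusted p of 0.0579 to 0.0654) and with the GAPDH covariate (-0.68, adjusted p = 0.283). ACT12 came under the threshold without wild-type leaves 1, wild-type flowers 3 or lug-3 flowers 3 (adjusted p of 0.0202 to 0.0400).

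Whether the 4 genes fell by unequal amounts in flowers was examined by the per-array log2 difference between each of the 6 pairs of genes, lug-3 against wild type. The difference PLIM2a minus PLIM2b was lower by 0.92 on the log2 scale in lug-3: it averaged 0.98 ± 0.0377 over the wild-type flower arrays and 0.07 ± 0.379 over those of the mutant. PLIM2a minus ACT12 was lower by 0.78. In both pairs the 3 lug-3 arrays did not overlap the 3 wild-type arrays, and p was 0.1 in the exact permutation test (two-sided), which 3 against 3 arrays cannot go below, or 0.3 after adjustment over the 6 pairs. With a pseudocount of 1 in place of 8 the value for PLIM2a minus ACT12 was -0.52 (adjusted p = 0.6 in the exact permutation test) and that for PLIM2a minus PLIM2b -0.95 (0.4). On the plain scale ACT12 was the lower of the pair on lug-3 flowers 2, at 22.8% of its wild-type mean against 26.9% for PLIM2a. The other 4 pairs overlapped, with exact permutation p-values of 0.3 to 0.8. The design cannot reach 0.05 for any of these differences.

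Within the flower groups the arrays were not alike. Wild-type flowers 3 had the lowest signal of all 4 genes among the wild-type flower arrays, at 77.5% to 86.6% of the wild-type mean. Of 9 tested genes on a list for the pollen vegetative cell and tube, 6 were lowest on that array and none was highest. The 3 tested genes on a tapetum list, the anther layer that feeds developing pollen, were all highest on it: AT5G07230 was at 149%, ATA27 at 127% and AT1G75920 at 111% of the wild-type flower mean.

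Among the lug-3 flower arrays MGH3 and the LIM genes PLIM2a and PLIM2b stood in opposite order. PLIM2a was at 13.4%, 26.9% and 34.3% of the wild-type flower mean on lug-3 flowers 1, 2 and 3. MGH3 was at 31.4%, 25.1% and 13.7% on the same arrays. PLIM2b was lowest on lug-3 flowers 1 and ACT12 on lug-3 flowers 2, and both were highest on lug-3 flowers 3. Of the 9 pollen vegetative cell genes 8 were lowest on lug-3 flowers 1. With 3 arrays this is a description and was not tested.

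**Figure D3:**
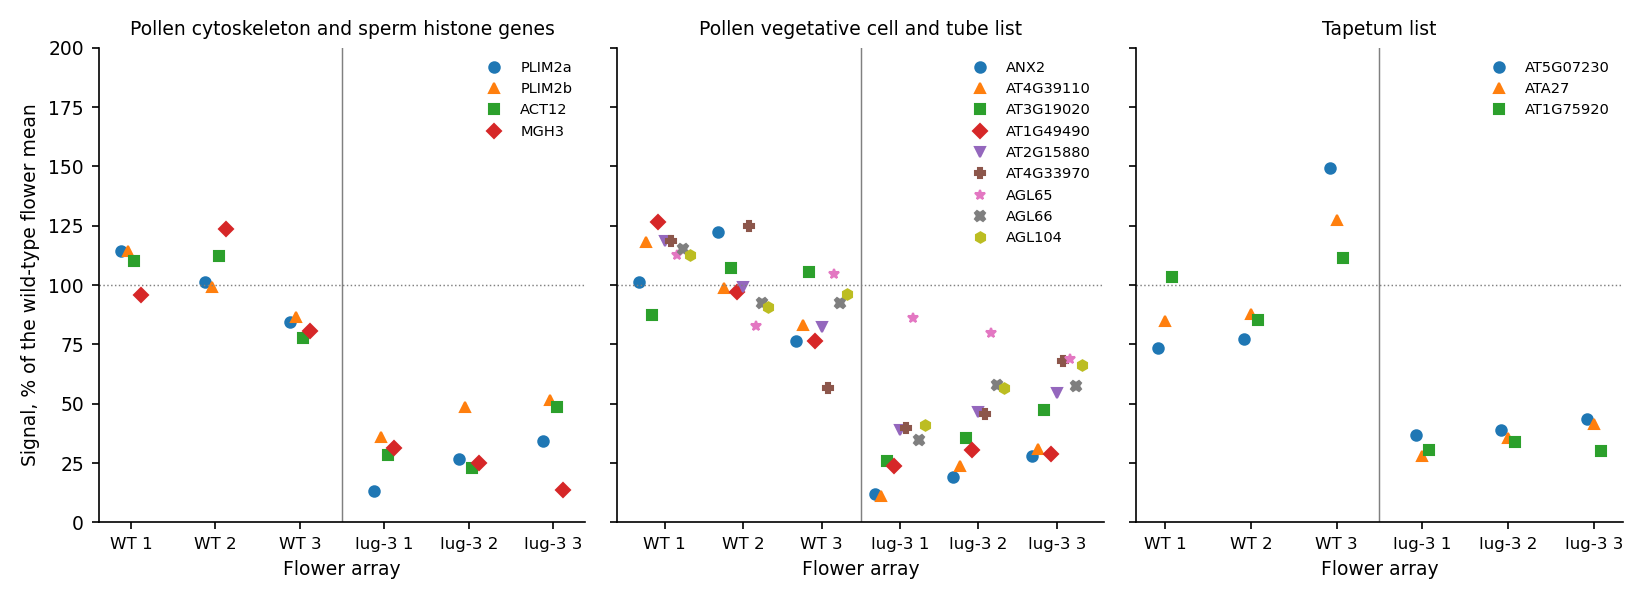
Signal on each of the 6 flower arrays as a percentage of the wild-type flower mean of the same gene (y axis, linear from 0), for PLIM2a, PLIM2b, ACT12 and MGH3, for the tested pollen vegetative cell and tube genes and for the tested tapetum genes. Each symbol is 1 gene on 1 array. Wild-type flowers 3 holds the lowest of the wild-type values for all 4 genes of the left panel and the highest for all 3 tapetum genes.

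The gene families of the 4 genes and other pollen genes were read from 11 lists with 107 loci, of which 27 had a probe set named here and 22 were tested. Counts are over tested genes. Among the other LIM-domain genes, the widely expressed WLIM1 fell in lug-3 flowers from 358 ± 3.47 to 244 ± 13.8 (-0.54 on the log2 scale, adjusted p = 0.00450). WLIM2a had -0.15 (adjusted p = 0.717) and WLIM2b 0.14 (adjusted p = 0.483), so 1 of 3 fell, where 6.75% of all tested probe sets were called lower. WLIM1 was at 68.2% of its wild-type flower mean, against 24.8% for PLIM2a and 45.4% for PLIM2b. In leaves WLIM2a rose from 39.5 ± 15.7 to 82.7 ± 5.27 (log2 change 0.99, adjusted p = 0.00653), a call lost when only the leaf arrays were fitted.

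ACT11, the only other actin tested and a reproductive one like ACT12, fell in lug-3 flowers from 257 ± 22.5 to 135 ± 5.55 (log2 change -0.89, SE 0.148, adjusted p = 0.00233). In leaves ACT11 rose in lug-3 from 18.3 ± 5.17 to 52.4 ± 6.83 (log2 change 1.21, adjusted p = 0.000308), where ACT12 had -0.35 and 11.3% of all tested probe sets were called higher. The ACT11 calls in both tissues held without any 1 array. No vegetative actin had a probe set named here. AT2G01330, the 1 tested gene of the actin-binding list, had -0.30 in flowers (adjusted p = 0.222).

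Of the 2 tubulin genes on the list, TUA1 (alpha-tubulin) fell in lug-3 flowers from 223 ± 39.9 to 130 ± 12.2 (log2 change -0.73, adjusted p = 0.00947). TUB9 (beta-tubulin) went from 613 ± 29.0 to 481 ± 47.2 without passing the test (-0.35, adjusted p = 0.0801). It rose in lug-3 leaves (0.52, adjusted p = 0.00932), a call lost when only the leaf arrays were fitted and when the GAPDH ratio was a covariate. Among the histone H3 genes HTR12, the centromeric H3, was the only one tested besides MGH3. It gave 35.5 ± 3.77 in wild-type and 31.2 ± 4.94 in lug-3 flowers, with overlapping groups (log2 change -0.15, SE 0.412, adjusted p = 0.861). None of the 10 other male germline genes on the list had a probe set named here, so MGH3 was the only gene of the male germline analysed here.

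In the pollen vegetative cell and tube list 5 of 9 tested genes fell in lug-3 flowers and none rose. Over all tested probe sets 6.75% were called lower and 5.27% higher. The count is a description: 6 of the 9 genes were below 16.4 on all leaf arrays and passed the filter through flowers alone, and ANX2, AT3G19020, AT1G49490 and AGL104 exceeded it on at most 1 lug-3 flower array. ANX2, a receptor kinase that keeps the pollen tube intact, fell from 84.8 ± 19.5 to 16.6 ± 6.82 (log2 change -1.93, adjusted p = 8.94e-05), to 19.6% of the wild-type mean. AT4G39110 fell by 1.95 to 21.8%, AT1G49490 by 1.41 to 27.6%, and AT3G19020 by 1.09 to 36.3%. The MADS-domain gene AGL104, of a family active late in pollen maturation, went from 23.1 ± 2.65 to 12.6 ± 2.92 (-0.60, adjusted p = 0.0483), a call lost without any 1 of the 6 flower arrays (adjusted p up to 0.171). Its relatives AGL66 (-0.81) and AGL65 (-0.27), and AT2G15880 (-0.88) and AT4G33970 (-0.71), did not pass. In leaves AGL104 had 1.88 ± 0.847 in wild type against 11.5 ± 4.54 in the mutant (log2 change 0.95, adjusted p = 0.00329). This was the only call of this list in leaves, where 11.3% of all tested probe sets were called higher. All of these AGL104 leaf values lay below 16.4, where differences are hardly measurable. The call of AT1G49490 in flowers was lost with a pseudocount of 1.

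Of the 19 tapetum loci listed 3 were tested, and all 3 fell in lug-3 flowers, where 6.75% of all tested probe sets were called lower. ATA27 and AT5G07230 were below 16.4 on every leaf array and passed the filter through flowers alone. ATA27 fell from 1056 ± 252 to 368 ± 71.5 (log2 change -1.49, adjusted p = 0.000327), AT1G75920 from 177 ± 23.8 to 55.8 ± 3.57 (-1.53, adjusted p = 0.000372) and AT5G07230 from 334 ± 142 to 133 ± 11.8 (-1.21, adjusted p = 0.0277). The last call was lost without wild-type flowers 3 or without any 1 of the lug-3 flower arrays (adjusted p up to 0.0883), with a pseudocount of 1 and without the 3 arrays of highest GAPDH ratio. The summed signal of the 3 genes was 1323 to 2042 in wild-type flowers, 470 to 636 in lug-3 flowers and 10.8 to 26.3 in leaves. The summed signal of the 9 pollen vegetative cell genes was 400 to 541, 131 to 208 and 69.8 to 111. That sum includes AGL65, which had 34.4 ± 5.20 in wild-type leaves and 30.4 ± 4.74 in wild-type flowers (log2 change -0.14, adjusted p = 0.386). The other 8 were called higher in wild-type flowers than leaves, as were 33.0% of all tested probe sets. The part of anther tissue in the change of PLIM2a, PLIM2b, ACT12 and MGH3 was not tested. The photosynthesis genes RCA and LHCB4.2, markers of green tissue, had log2 changes of 0.24 (adjusted p = 0.341) and 0.57 (adjusted p = 0.0748) in lug-3 flowers, with overlapping groups. LHCB4.2 was at 151% of its wild-type flower mean. It was called higher in 4 of 12 alternatives, among them array weights and the fit without the 3 arrays of highest GAPDH ratio, and when wild-type flowers 3 or lug-3 flowers 3 was left out (adjusted p down to 0.0184). RCA was called with array weights alone. In lug-3 leaves LHCB4.2 was called higher (0.65, adjusted p = 0.0296) with groups that did not overlap, and RCA was not called (-0.25, adjusted p = 0.253). Over all tested probe sets 11.3% were called higher in leaves. The leaf call of LHCB4.2 was lost in 4 of 6 fits with 1 array left out, with quantile normalization and with the GAPDH covariate. Its interaction term was -0.08 (adjusted p = 0.864).

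**Figure D4:**
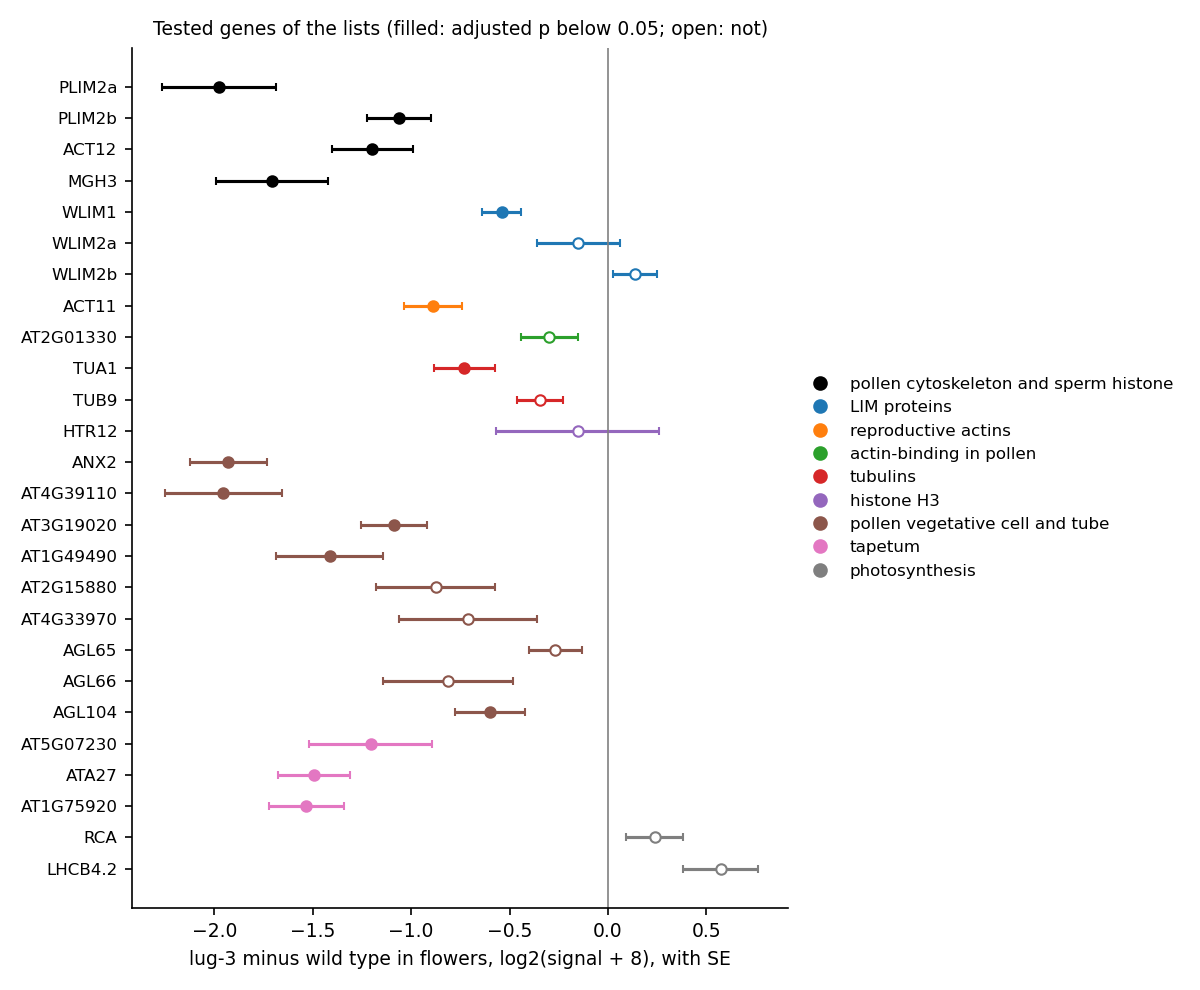
Change in lug-3 against wild-type flowers, in log2(signal + 8) with SE (x axis), for PLIM2a, PLIM2b, ACT12 and MGH3 and for the 22 tested genes of the lists, coloured by list. Filled symbols have an adjusted p below 0.05. PLIM2a, ANX2 and AT4G39110 lie near -2, and WLIM2a, WLIM2b and HTR12 lie near 0.

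Named genes with a pattern most like that of each gene were sought by Pearson's r of log2(signal + 8) over the 12 arrays, among 10009 other tested probe sets with 1 gene. The arrays fall into 4 groups, so r mostly carries the differences between groups and is given as a description. PLIM2a was most like AT1G61860, AT5G54095 and AT3G62710 (r = 0.994, 0.994 and 0.993). AT5G54095 was near absent from leaves, with 0.512 ± 0.0980 in wild type, and had 256 ± 49.4 in wild-type and 48.1 ± 23.1 in lug-3 flowers. In all, 257 probe sets reached r of 0.95 with PLIM2a, 99 with ACT12, 22 with PLIM2b and 8 with MGH3.

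PLIM2b, with its leaf signal, was most like AT1G78460 (r = 0.985), which had 157 ± 54.8 in wild-type leaves, 80.3 ± 10.4 in lug-3 leaves, 507 ± 140 in wild-type flowers and 218 ± 78.0 in lug-3 flowers. AT3G61160 (0.976) and AT5G15110 (0.970) came next. ACT12 was most like AT1G25240 (0.981), AT3G15280 (0.981) and AT2G21990 (0.978). MGH3 was most like AT1G01630 (0.973), AT5G36260 (0.958) and AT1G54860 (0.955). Unlike MGH3, AT1G01630 kept a clear leaf signal, of 248 ± 24.3 (wild type) and 233 ± 10.1 (lug-3). Its flower signal was 439 ± 21.4 (wild type) and 302 ± 17.8 (lug-3). AT5G36260 had 43.3 ± 6.89 in wild-type and 6.45 ± 0.145 in lug-3 flowers.

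The mean of the 4 genes, each standardised over the arrays, was most like AT1G13970 (r = 0.990), AT5G62750 (0.988), AT3G60780 (0.987), AT5G48140 (0.986), AT2G33690 (0.986), AT1G52680 (0.985), AT3G01250 (0.984) and AT3G24510 (0.984). AT1G13970 had 16.5 ± 2.64 in wild-type leaves, 10.6 ± 0.998 in lug-3 leaves, 157 ± 27.2 in wild-type flowers and 50.7 ± 13.0 in lug-3 flowers. The gene table gives none of these loci a name. Between the 4 genes themselves r was 0.875 (PLIM2a and MGH3) to 0.946 (PLIM2a and ACT12).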

How the data were processed

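Probe set intensity (signal) is used as the authors deposited it, on a linear scale. The submitters' processing notes name GCOS and MAS5, with no version, settings or genome build given here. Each array had been scaled to a trimmed mean (2% at each end) of 100.0.

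Of 22810 probe sets, 64 controls were left out. GEO's platform annotation gave 1 gene for 13513, of which 13436 matched the RefSeq gene table (TAIR10.1) by Entrez ID, and 503 had several genes and named none. No coordinates are printed.

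Signals were transformed as log2(signal + 8), 8 being the rounded 20th percentile. Probe sets above 16.4 on at least 3 arrays (17877) were tested in 1 model of 4 group means over 12 arrays with limma 3.58.1 in R 4.3.3, two-sided, with Benjamini-Hochberg adjustment at 0.05. The fit was tested on simulated data. Pairs of genes were compared by exact permutation tests in SciPy 1.17.1.

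The 4 genes and the lists were chosen with earlier results of these data known. The text names the 4 genes, all tested list genes and, for likeness, the 3 nearest probe sets per gene and the 8 nearest to their mean. Genes on a list but under the filter are named in the closing section, chosen after their values were seen. The number of arrays limits the precision.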

Additional observations from a re-analysis of the deposited data

Results flagged for a closer look

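The lug-3 change differed between flowers and leaves, by the interaction term of the limma fit, for the following genes, each given as the log2 change in flowers minus that in leaves. Of the 4 genes described, these were PLIM2a (-1.79) and MGH3 (-1.41). Of the LIM, actin and tubulin genes they were WLIM1 (-0.65), WLIM2a (-1.14), ACT11 (-2.10), TUA1 (-0.69) and TUB9 (-0.86). Of the pollen vegetative cell genes they were ANX2 (-2.02), AT4G39110 (-2.43), AT3G19020 (-1.17), AT1G49490 (-1.33) and AGL104 (-1.55), and of the tapetum genes AT5G07230 (-1.52), ATA27 (-1.35) and AT1G75920 (-2.04). The list genes named are 13 of the 22 tested. Over all tested probe sets 11.5% were called with a more negative change in flowers. PLIM2a and MGH3, and 7 of these 13 list genes (ANX2, AT4G39110, AT3G19020, AT1G49490, AGL104, AT5G07230 and ATA27), were below 16.4 on all 6 leaf arrays, so that a leaf change was hardly measurable and their values largely restate the change in flowers. For ACT11 calls of opposite direction stand behind the value, a rise in lug-3 leaves and a fall in lug-3 flowers. For WLIM2a and TUB9 the rise in lug-3 leaves was called (0.99 and 0.52) and the flower change was not (-0.15 and -0.35). Both leaf calls were lost when only the leaf arrays were fitted. For AGL104 the flower call was lost without any 1 flower array. The interaction call was lost without 9 of the 12 arrays in turn for TUA1 (adjusted p up to 0.0938), 7 for AT5G07230 (up to 0.0673) and 6 for AT1G49490 (up to 0.0686). It was also lost with a pseudocount of 1 for AT5G07230, AT1G49490 and ATA27, and for TUA1 and AT5G07230 when the GAPDH ratio was a covariate.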

How the results depend on the processing

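The falls of PLIM2a, PLIM2b, ACT12 and MGH3 in lug-3 flowers kept direction and call under every alternative run. ACT12 was not tested with a filter at 50. The wild-type tissue comparison kept direction as well. Its calls held outside the fit without the 3 arrays of highest GAPDH ratio, where they are not read. That fit kept only array 1 of the wild-type leaf group. Every leaf or interaction value from it therefore rests on 1 array of that group, and such calls are not read either. Over the alternatives that keep all replicates or drop the 3 arrays of highest GAPDH ratio (chosen after seeing the data), the flower change ranged from -2.23 to -1.69 for PLIM2a, -1.19 to -0.87 for PLIM2b, -1.57 to -0.68 for ACT12 and -2.08 to -1.09 for MGH3. The leaf value of PLIM2a, not called, turned to 0.33 when the GAPDH ratio was a covariate and to 0.0705 without the 3 arrays, and ranged from -0.33 to 0.0746 with 1 array left out. The leaf call of PLIM2b was lost with only the leaf arrays (-0.56, adjusted p = 0.0657) and with the covariate (-0.48). Its leaf change was -0.60 without the 3 arrays, and ranged from -0.68 to -0.47 with 1 array left out. For the interaction, PLIM2a lost its call with a pseudocount of 1 (-1.74), and MGH3 with a pseudocount of 1 (-1.52) and the covariate (-0.68). The MGH3 interaction was -0.92 without the 3 arrays and -1.58 to -1.11 with 1 array left out. ACT12 gained an interaction call with a pseudocount of 32 (-0.57) and array weights (-1.03). With 1 array left out its interaction ranged from -1.05 to -0.70. MGH3 lost its call for lug-3 flowers against lug-3 leaves after median centring (0.72). PLIM2b minus ACT12 turned from 0.14 to -0.0462 with quantile normalization. The pollen vegetative cell genes lower in lug-3 flowers numbered 3 with a pseudocount of 1, 2 with a filter at 50 (fewer genes tested) and 8 with array weights. The cause was not tested unless given. The 2150 probe sets called in flowers became 5059 with array weights, 1151 or 1199 when array 1 or 2 of the wild-type flowers was left out, and 1312 or 1231 when array 1 or 2 of the mutant flowers was. The 3993 in leaves became 1950 with only the leaf arrays, 2600 or 2581 when array 2 or 3 of the mutant leaves was left out.

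Samples were not treated as paired by replicate number. Same-numbered arrays of compared groups had correlations of deviations from -0.06 to 0.18, the highest for replicate 1 of the 2 leaf groups. With 3 arrays per group these values cannot settle whether the numbers pair the samples. With the replicate number as a block, PLIM2a had an adjusted p of 0.00248, PLIM2b and MGH3 0.00433 and ACT12 0.00646 in flowers, and no call of these 4 genes changed. The pollen vegetative cell count was then 4 in place of 5.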

Other observations

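Genes of the lists that did not pass the filter on low signal had no test; they were named after their values were seen. ANX1, a receptor kinase gene closely related to ANX2, had signals of 12.5 to 22.7 on the wild-type flower arrays and 0.994 to 2.52 on the lug-3 flower arrays, with 0.753 to 2.19 in leaves. AMS, a transcription factor gene of the tapetum, had 13.8 to 21.7 in wild-type and 8.69 to 12.5 in lug-3 flowers. AT5G12910, of the histone H3 list, had 10.4 to 12.1 in wild-type and 3.90 to 6.00 in lug-3 flowers. In leaves it had 6.70 to 11.5 in wild type and 5.29 to 13.1 in lug-3, so its wild-type flower values lay within the leaf range. All its values were below 16.4. The H3 list loci AT1G13370 and AT1G75600 stayed at or below 10.2 on every array.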
